A study of Mus musculus with 10 samples.

Results

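The genes described here are 38 interferon-stimulated genes, given as a list of gene symbols and found by matching those symbols to the gene names in the count files. All 38 were found among 35667 genes, and all 38 had enough counts to be among the 15710 genes tested. RNA was sequenced from whole aorta, the large artery that carries blood from the heart, of C57BL/6 mice aged 12 weeks. The groups were 5 libraries labelled knockout (KO) for Ovgp1, which encodes a secreted oviductal glycoprotein, and 5 libraries labelled wild type (WT). All 5 KO titles name Ovgp1, while in the genotype field the gene is Ovgp1 in KO replicate 1 but Ovgp2 in replicate 2, Ovgp3 in replicate 3, Ovgp4 in replicate 4 and Ovgp5 in replicate 5. The labels give no treatment or infection, do not describe the targeted allele, and do not say whether libraries come from different mice, so p-values measure the spread between these libraries, which may be technical.

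Interferons are secreted when cells sense viral or other foreign nucleic acid, or, for interferon gamma, by activated lymphocytes. Type I interferons act through the IFNAR receptor, the kinases JAK1 and TYK2 and a complex that holds STAT2 and IRF9, which binds the interferon-stimulated response element in promoters. Interferon gamma acts through its own receptor and favours the guanylate-binding and immunity-related GTPases and the machinery that loads peptides onto MHC class I. Many of these genes also have a low basal level in uninfected tissue, which in a vessel wall can come from smooth muscle, endothelium, fibroblasts or resident macrophages.

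Total counts ran from 24434745 to 26694590 in the libraries labelled KO and from 21242030 to 24396394 in those labelled WT. The 5 KO libraries were nearly identical to each other. Pairs of libraries were compared by chi-square per degree of freedom, a measure that is 1 when counting error alone separates them. Over the 12509 genes averaging 50 or more counts, scaled by their own summed counts, it was 1.77 to 3.25 for the KO pairs and 11.03 to 154 for the WT pairs. Over the 32 interferon-stimulated genes among them, scaled by TMM-adjusted library totals, it was 1.34 to 3.03 for the KO pairs and 2.07 to 19.9 for the WT pairs. An SD over KO libraries therefore covers little beyond counting error, and a further fit that adds the KO counts up into 1 sample, set against 5 WT libraries, is given beside each call of the 38 genes. Ovgp1 itself was higher in the libraries labelled KO, at 17.8 to 21.9 CPM (counts scaled to library size), against 1.97 to 4.69 CPM in WT, with an adjusted p of 2.84e-05 in the 5 against 5 fit and 0.217 with KO as 1 sample. All directions given here follow the labels, which this gene goes against. Markers of smooth muscle, the main cell of the aortic wall, were abundant: the 6 markers, led by Acta2 and Myh11, summed to 35189 to 35860 CPM in KO and 25319 to 38776 CPM in WT, and Tagln among them was called lower in KO in the 5 against 5 fit and not with KO as 1 sample. The share of counts from mitochondrial genes was 7.61% to 7.88% in KO, against 16.2%, 6.75%, 13.2%, 8.92% and 9.59% in WT replicates 1 to 5.

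Of the 38 genes, 28 had a promoter window from 250 bases before to 50 bases after the start in the RefSeq table (GRCm38.p6). The core of the interferon-stimulated response element, the letters GAAA, then any 2 bases, then GAAA, was searched on either strand (TTTC, any 2 bases, TTTC on the strand shown), and overlapping matches were kept. A match was present in 16 of the 28 (57.1%), against 1079 of 27025 genes with a window (3.99%) and 1131 of 32851 windows (3.44%). By role the matches were in 5 of 5 GTPases, 5 of 6 antiviral effectors, 2 of 4 oligoadenylate synthetase genes, 2 of 3 sensors and 2 of 4 signalling genes, and in 0 of 3 peptide supply genes and 0 of 3 of the remaining genes. Shown here, from 170 bases before to 15 bases after the start and 5′ to 3′ on the gene's strand, are the matched promoters among the genes given below with values in every library; capitals mark the match.
Isg15 (chr4:156200804-156200988, minus strand): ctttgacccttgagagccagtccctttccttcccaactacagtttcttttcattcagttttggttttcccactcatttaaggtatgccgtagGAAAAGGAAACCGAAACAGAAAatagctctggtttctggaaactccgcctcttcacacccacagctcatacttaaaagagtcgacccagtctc
Ddx58 (chr4:40239811-40239995, minus strand): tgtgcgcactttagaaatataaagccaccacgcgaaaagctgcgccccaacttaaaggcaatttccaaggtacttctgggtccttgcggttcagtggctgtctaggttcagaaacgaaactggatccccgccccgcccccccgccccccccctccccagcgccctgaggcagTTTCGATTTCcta
Ifit3 (chr19:34583359-34583543, plus strand): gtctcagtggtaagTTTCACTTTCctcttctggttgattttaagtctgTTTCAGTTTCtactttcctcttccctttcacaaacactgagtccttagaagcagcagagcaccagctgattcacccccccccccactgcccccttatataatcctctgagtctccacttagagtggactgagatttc
Bst2 (chr8:71537458-71537642, minus strand): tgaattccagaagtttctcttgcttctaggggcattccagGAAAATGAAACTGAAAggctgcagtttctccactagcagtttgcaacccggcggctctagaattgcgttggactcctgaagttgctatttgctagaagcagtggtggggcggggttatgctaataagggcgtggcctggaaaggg
Gbp2 (chr3:142620493-142620677, plus strand): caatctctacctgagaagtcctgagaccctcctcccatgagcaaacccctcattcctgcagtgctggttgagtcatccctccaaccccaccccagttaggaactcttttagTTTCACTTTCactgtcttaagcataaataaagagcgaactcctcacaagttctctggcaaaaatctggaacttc
Isg15 holds 3 overlapping matches whose first bases lie 78, 72 and 66 bases before the start, and Bst2 holds 2 that overlap, at 130 and 124 bases before it. Ifit3 has separate matches 156 and 122 bases before the start, Gbp2 has 1 at 59 bases before it, and the match of Ddx58 begins at base 3 of the transcript. A match describes letters in the window and is not a measurement of binding.

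Most of the 38 genes did not pass the test between the libraries labelled KO and WT. In the 5 against 5 fit (edgeR, Benjamini-Hochberg adjusted p of at most 0.05 over all genes tested) 3 were higher in KO, Psmb9, Tap1 and Dhx58 (7.89% of the 38), and 2 were lower, Ifi27 and Ifi35 (5.26%). Of all genes tested, 6.84% were called higher and 7.43% lower, so the shares among the 38 lay near the background. With KO as 1 sample none of the 38 passed, where 0.0446% of all genes did; at an unadjusted p under 0.05 in that fit there were 2 of 38, Psmb9 and Ifi27, against 3.72% of all genes. The log2 difference, KO minus WT, was above 0 for 23 of 38 (60.5%, against 45.8% of all genes), and its median was 0.07, against -0.02 over all genes. The median size of the difference without its sign was 0.146 on the log2 scale, against 0.159 over all genes. The KO mean lay within the range of the 5 WT libraries for 27 of 38 genes (71.1%, against 71.3% of all genes), above it for 8 (21.1%, against 14.4%) and below it for 3 (7.89%, against 14.4%). The groups did not overlap, with KO above, for Psmb9, Tap1, Dhx58 and Isg15 (10.5%, against 7.38% of all genes), and with KO lower for Ifi27 (2.63%, against 7.22%).

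**Figure D1:**
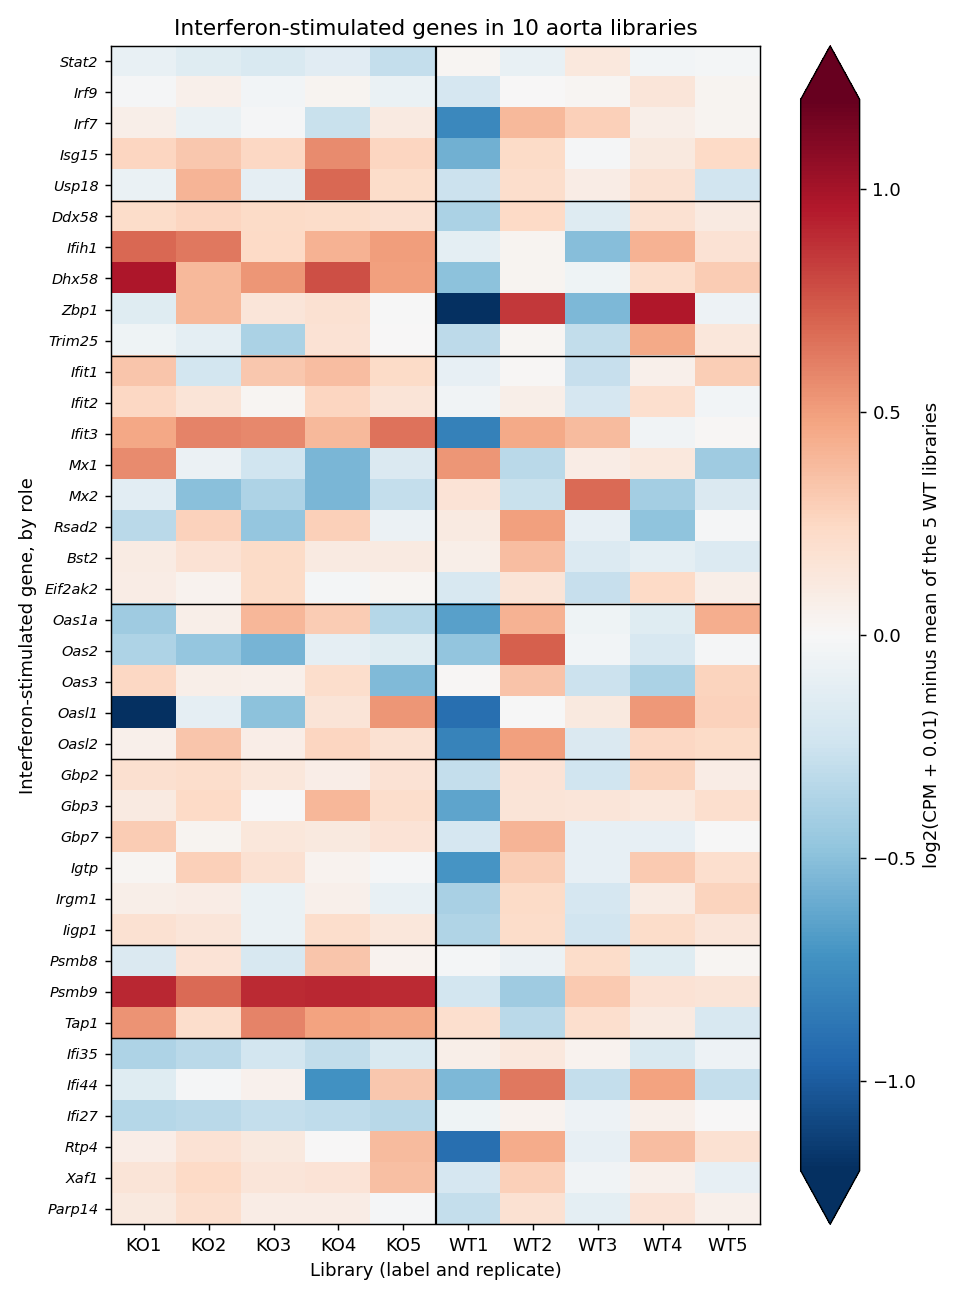
Heat map of the 38 interferon-stimulated genes (rows, grouped by role) in the 5 libraries labelled KO and the 5 labelled WT (columns), coloured by log2(CPM + 0.01) minus the mean of the 5 WT libraries. Psmb9 is above the WT mean in each KO library and Ifi27 below it, and the column of WT replicate 1 is blue for most genes of the GTPase and oligoadenylate synthetase blocks.

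**Figure D2:**
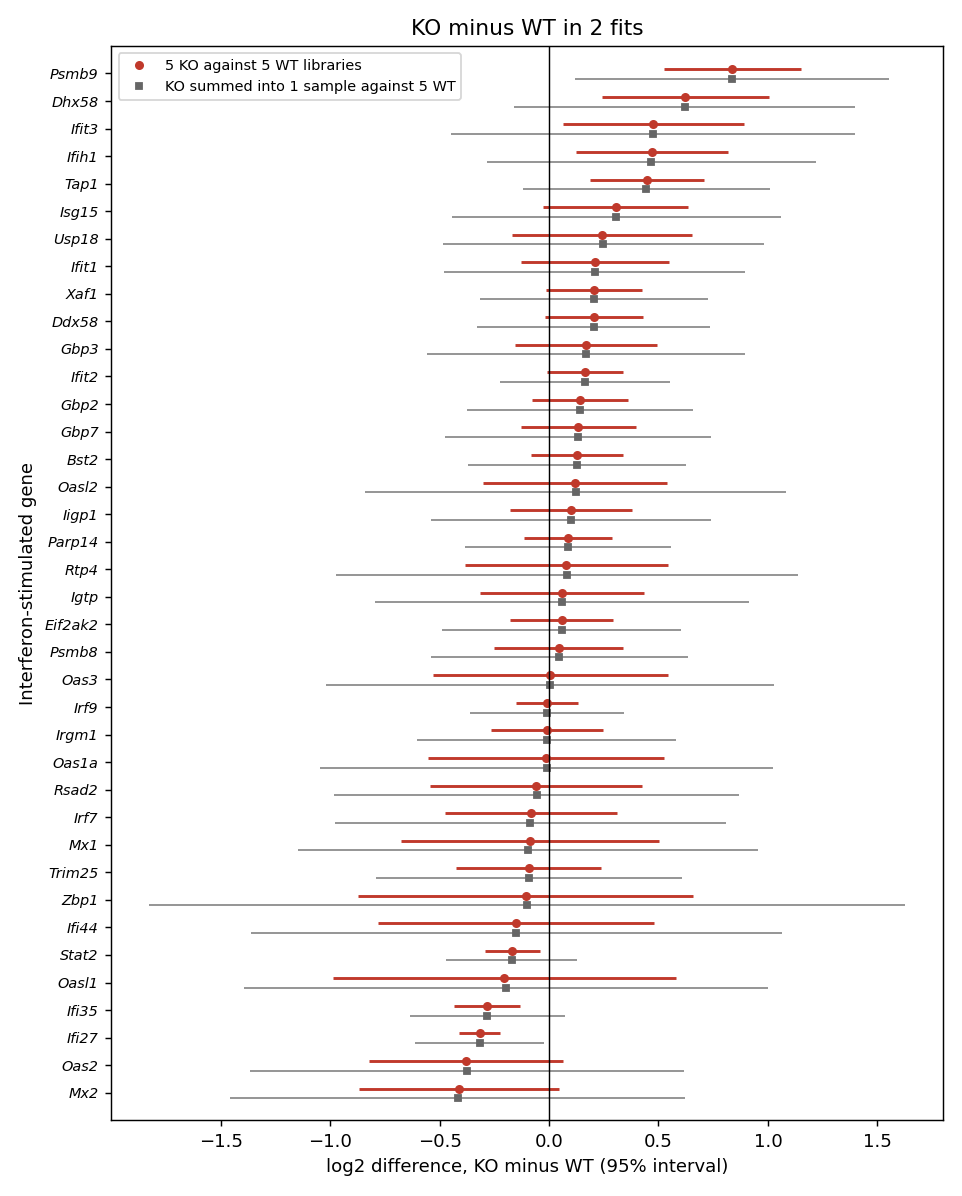
Log2 difference, KO minus WT, of each of the 38 genes with its 95% interval, from 5 KO against 5 WT libraries (circles) and from KO summed into 1 sample against 5 WT libraries (squares). With KO as 1 sample only the intervals of Psmb9 and Ifi27 leave out 0, before adjustment over all genes.

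The 5 genes of interferon signalling and its brakes gave no call, and their log2 differences ran from -0.17 to 0.31. Isg15, which encodes a ubiquitin-like protein that is attached to other proteins, had 4.98, 5.22, 4.98, 6.17 and 4.99 CPM in KO libraries 1 to 5, against 2.80, 4.91, 4.14, 4.52 and 4.92 CPM in WT libraries 1 to 5. The groups did not overlap, but the highest WT value, 4.92 CPM, was close to the lowest KO value, 4.98 CPM, and WT replicate 1 lay far below the other WT libraries. Its fold was 1.24 (95% interval 0.982 to 1.56, adjusted p = 0.205), and 0.735 to 2.08 bounded the fold with KO as 1 sample. Irf7, the transcription factor that amplifies type I interferon, had 8.45, 7.62, 7.97, 6.68 and 8.64 CPM in KO, against 4.71, 10.5, 9.82, 8.43 and 8.21 CPM in WT. The KO values sat inside the WT range, whose highest library was 2.23 times its lowest (fold 0.945, 95% interval 0.720 to 1.24, adjusted p = 0.803). Stat2 and Irf9, subunits of the type I complex, were the steadiest of this group, with 25.5 to 29.3 CPM in KO and 29.2 to 33.9 CPM in WT for Stat2 (adjusted p = 0.0713), and 24.1 to 26.5 CPM in KO and 22.1 to 28.2 CPM in WT for Irf9 (adjusted p = 0.945). Usp18, whose product removes ISG15 and restrains the receptor, had 1.91 to 3.32 CPM in KO and 1.72 to 2.39 CPM in WT (adjusted p = 0.426).

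Among the 5 genes of nucleic acid sensing, Dhx58 was higher in the libraries labelled KO. It encodes LGP2, a helicase that tunes the RNA sensors RIG-I and MDA5, and lies on chromosome 11, 100694884 to 100704271, minus strand (GRCm38). Its level was 4.26, 2.85, 3.14, 3.72 and 3.07 CPM in KO, against 1.54, 2.22, 2.09, 2.51 and 2.69 CPM in WT. The lowest KO library, replicate 2 at 2.85 CPM, was above the highest WT library, replicate 5 at 2.69 CPM. The fold was 1.54 (95% interval 1.18 to 2.01, adjusted p = 0.0351), and with KO as 1 sample it was bounded by 0.896 and 2.63 (adjusted p = 0.999). The call did not hold without KO replicate 1 (0.0930), 3 (0.0616), 4 (0.0864) or 5 (0.0602) or without WT replicate 3 (0.0522), and 4.31% of its exonic bases are shared with the antisense gene Dhx58os.

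Ddx58, which encodes the RNA sensor RIG-I, was the most abundant sensor per kilobase of exon, at 3.75 CPM per kb in KO and 3.25 CPM per kb in WT. It had 26.4, 27.0, 26.5, 26.3 and 25.8 CPM in KO, against 17.4, 26.7, 20.4, 25.7 and 24.3 CPM in WT. WT replicates 1 and 3 were low and the remaining WT libraries stood near the KO values, with a fold of 1.15 (95% interval 0.986 to 1.35, adjusted p = 0.210). Ifih1, which encodes MDA5, had 5.95 to 8.17 CPM in KO and 3.54 to 6.74 CPM in WT (fold 1.38, 95% interval 1.09 to 1.76, adjusted p = 0.0702). Zbp1, which encodes a sensor of Z-form nucleic acid, had 1.71, 2.48, 2.09, 2.15 and 1.88 CPM in KO, against 0.814, 3.42, 1.30, 3.70 and 1.81 CPM in WT. Its WT libraries differed by 4.54 times between the highest and the lowest, the widest ratio among the 32 genes averaging 50 or more counts, on 18 to 90 counts a library, and the KO values fell in the middle of them (adjusted p = 0.875). Trim25, the ubiquitin ligase of the RIG-I pathway, had 8.83 to 13.0 CPM in KO and 9.23 to 15.7 CPM in WT (adjusted p = 0.728).

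**Figure D3:**
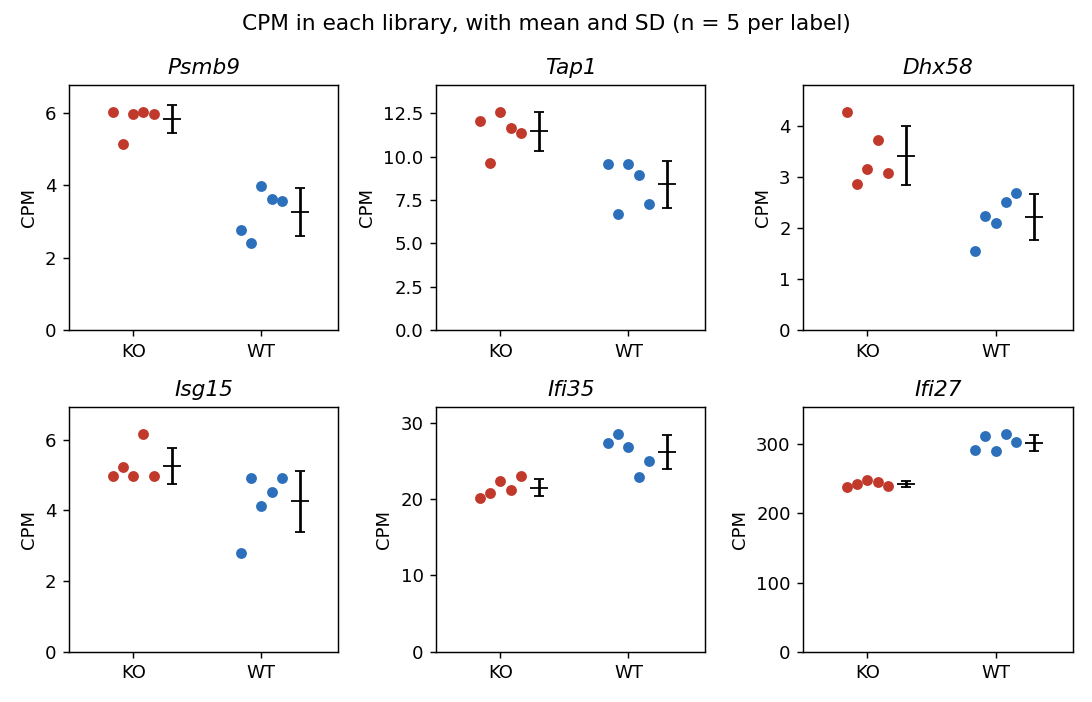
CPM of the 5 genes past the adjusted threshold in the 5 against 5 fit and of Isg15, in each library labelled KO (red) and WT (blue); black bars are the mean and SD of 5 libraries. The groups are apart for Psmb9, Tap1, Dhx58, Isg15 and Ifi27, and overlap for Ifi35, where KO replicate 5 (23.01 CPM) lies above WT replicate 4 (22.9 CPM).

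The 8 antiviral effectors, which block viral entry, translation or replication, gave no call. Ifit3, a tetratricopeptide protein of the complex that binds viral RNA ends, had 15.4, 16.7, 16.6, 14.6 and 17.5 CPM in KO, against 6.33, 15.2, 14.5, 10.8 and 11.2 CPM in WT. WT replicates 2 and 3 came up to the lower KO values, and WT replicate 1 lay far under the other WT libraries. The fold was 1.39 (95% interval 1.04 to 1.85, adjusted p = 0.117), with bounds of 0.733 and 2.64 with KO as 1 sample. Reads of Ifit3 may be split with its near-identical copy Ifit3b. Bst2, which encodes tetherin, a membrane protein that holds budding virus to the cell, was the most abundant effector at 41.6 CPM per kb in KO and 38.1 CPM per kb in WT. Its level was 36.4, 38.3, 39.8, 36.7 and 36.6 CPM in KO, against 35.7, 44.0, 30.3, 31.4 and 30.4 CPM in WT, so WT replicate 2 lay above every KO library and the other WT libraries below them (adjusted p = 0.411). Ifit1 and Ifit2 had 2.33 to 3.51 and 21.2 to 25.0 CPM in KO, against 2.24 to 3.34 and 18.1 to 24.0 CPM in WT, with adjusted p of 0.402 and 0.187. Eif2ak2, which encodes the RNA-dependent kinase PKR, had 9.68 to 11.6 CPM in KO and 8.12 to 11.6 CPM in WT (adjusted p = 0.760). Mx1, Mx2 and Rsad2 were low, at 12 to 28, 48 to 84 and 27 to 52 counts a library, with folds of 0.941, 0.752 and 0.960 and adjusted p of 0.864, 0.215 and 0.891. C57BL/6 mice carry defective alleles of Mx1 and Mx2, so these counts are transcripts and not working antiviral protein.

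No gene of the oligoadenylate synthetase family, whose active members make the second messenger that activates RNase L, passed the test, and its WT libraries were spread widely. Oasl2 had 9.96, 12.1, 10.1, 11.4 and 10.8 CPM in KO, against 5.47, 13.4, 8.47, 11.3 and 11.2 CPM in WT, a WT ratio of 2.45. Oas2 had 4.14, 3.87, 3.63, 4.97 and 4.84 CPM in KO, against 3.85, 8.80, 5.23, 4.69 and 5.29 CPM in WT, a WT ratio of 2.29. For both genes WT replicate 1 was the lowest WT library and WT replicate 2 the highest, and the KO libraries lay between these extremes except KO replicate 3 of Oas2 at 3.63 CPM; folds were 1.09 (95% interval 0.812 to 1.46, adjusted p = 0.724) and 0.770 (0.566 to 1.05, adjusted p = 0.242). Oas1a, Oas3 and Oasl1 had 21 to 53, 9 to 17 and 6 to 27 counts a library. The 95% intervals of their folds were 0.681 to 1.44, 0.693 to 1.46 and 0.504 to 1.496, so neither a modest rise nor a modest fall can be told from no change. Reads of Oas1a may be shared with its tandem copies on chromosome 5.

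All 6 interferon gamma-induced GTPases, which attack the vacuoles of intracellular pathogens, had log2 differences close to 0, from -0.01 to 0.17, with no call. Gbp2, the most abundant at 13.1 CPM per kb in KO and 11.8 CPM per kb in WT, had 33.7, 34.1, 32.4, 31.1 and 33.1 CPM in KO, against 24.2, 33.0, 24.9, 35.4 and 31.4 CPM in WT (fold 1.10, 95% interval 0.948 to 1.28, adjusted p = 0.379). The 5 KO libraries stood close together, and the WT libraries had low values in replicates 1 and 3 and values like those of KO in replicates 2, 4 and 5. WT replicate 1 was the lowest WT library for each of the 6, and the sum of the 6 was 82.8 to 89.6 CPM in KO, against 61.5, 92.9, 71.1, 90.3 and 88.8 CPM in WT replicates 1 to 5. Gbp3, Gbp7, Igtp, Irgm1 and Iigp1 had folds of 1.12, 1.10, 1.04, 0.993 and 1.07, and adjusted p of at least 0.491. Igtp shares 8.01% of its exonic bases with Irgm2 and Gbp7 11.3% with the gene model Gm43802, and the GBP genes resemble each other, so reads may be split among them.

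Of the 3 genes of peptide supply to MHC class I, Psmb9 and Tap1 were higher in KO, while Psmb8 did not pass. Psmb9 encodes an immunoproteasome subunit and Tap1 a subunit of the transporter that carries peptides into the endoplasmic reticulum; they lie head to head on chromosome 17, Psmb9 at 34181987 to 34187764 on the minus strand and Tap1 at 34187553 to 34197225 on the plus strand (GRCm38). Psmb9 had 6.02, 5.14, 5.99, 6.02 and 5.98 CPM in KO, against 2.76, 2.39, 3.99, 3.62 and 3.57 CPM in WT. Each KO library was above every WT library, so the two-sided exact permutation p was the least that 5 against 5 libraries allow (0.00794). That p restates the lack of overlap, counts the nearly identical KO libraries as independent, and was the same for Tap1, Dhx58, Isg15 and Ifi27. Psmb9 had a fold of 1.79 (95% interval 1.44 to 2.22, adjusted p = 0.00350). With KO as 1 sample the fold was bounded by 1.09 and 2.93, with an unadjusted p of 0.0278 and an adjusted p of 0.999. Tap1 had 12.1, 9.65, 12.6, 11.6 and 11.4 CPM in KO, against 9.59, 6.66, 9.57, 8.96 and 7.28 CPM in WT. The lowest KO library, replicate 2 at 9.65 CPM, was barely above WT replicate 1 at 9.59 CPM. The fold was 1.36 (95% interval 1.14 to 1.63, adjusted p = 0.0284; 0.920 to 2.02 and adjusted p = 0.999 with KO as 1 sample), and the call did not hold without KO replicate 1 (0.0717), 3 (0.0749), 4 (0.0665) or 5 (0.0633) or without WT replicate 5 (0.0647).

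Exons of the pair overlap on opposite strands over 5.79% of the exonic bases of Psmb9 and 3.87% of those of Tap1, and since the strand setting of the counting is not given in the sources used here, reads there could be counted for either. Psmb8, the neighbouring immunoproteasome subunit, had 3.31, 4.17, 3.25, 4.71 and 3.84 CPM in KO, against 3.66, 3.55, 4.34, 3.37 and 3.80 CPM in WT, and did not pass (fold 1.03, 95% interval 0.841 to 1.27, adjusted p = 0.861). Its groups overlapped throughout, and 14.7% of its exonic bases are shared with the opposite-strand model Gm20496. None of the 3 genes was lowest in WT replicate 1; WT replicate 2 was the lowest for Psmb9 and Tap1.

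Ifi27 and Ifi35 were lower in the libraries labelled KO, while the other 4 interferon-induced genes of no single shared role did not pass. Ifi27, the mouse counterpart of human interferon alpha-inducible protein 27 (chromosome 12, 103434211 to 103440239, plus strand), was by far the most abundant of the 38, at 165 CPM per kb in KO and 206 CPM per kb in WT. Its level was 238, 242, 248, 245 and 240 CPM in KO, against 292, 311, 290, 315 and 303 CPM in WT. The groups were well apart and the WT libraries, unlike those of most of the other genes, lay within 1.09 times of each other. The fold was 0.803 (95% interval 0.751 to 0.858, adjusted p = 0.00103; two-sided exact permutation p = 0.00794), and with KO as 1 sample it was bounded by 0.655 and 0.983, with an unadjusted p of 0.0373 and an adjusted p of 0.999. Ifi27 made up 37.6% to 39.2% of the summed CPM of the 38 genes in KO and 42.8% to 48.1% in WT. The sum of the 38 was 630 to 642 CPM in KO, against 606, 727, 641, 708 and 680 CPM in WT, and without Ifi27 it was 385 to 398 CPM in KO, against 315, 416, 352, 394 and 377 CPM in WT.

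Ifi35, which encodes a leucine zipper protein (chromosome 11, 101448407 to 101458698, plus strand), had 20.1, 20.8, 22.3, 21.2 and 23.01 CPM in KO, against 27.4, 28.5, 26.9, 22.9 and 25.0 CPM in WT. KO replicate 5 and WT replicate 4 overlapped. The fold was 0.823 (95% interval 0.741 to 0.914, adjusted p = 0.0199; 0.643 to 1.05 and adjusted p = 0.999 with KO as 1 sample). The call did not hold with library totals in place of TMM (0.0828), with no filter on low counts (0.0926), or without KO replicate 1 (0.0589), 2 (0.0570) or 4 (0.0538), and 16.8% of its exonic bases are shared with the opposite-strand model Gm11626. Rtp4, which encodes a chaperone of membrane receptors, had 4.22, 4.51, 4.34, 4.02 and 5.21 CPM in KO, against 2.13, 5.47, 3.74, 5.18 and 4.54 CPM in WT, a WT ratio of 2.57 (adjusted p = 0.842). Xaf1, a gene linked to apoptosis, and Parp14, an ADP-ribosyltransferase, had 8.79 to 10.2 and 16.1 to 18.7 CPM in KO, against 6.88 to 9.65 and 13.3 to 18.5 CPM in WT, with adjusted p of 0.201 and 0.570. Ifi44 had 12 to 29 counts a library and an adjusted p of 0.774.

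Among the WT libraries the 38 genes had a larger median ratio and coefficient of variation than all genes, often with low values in WT replicate 1 and high values in WT replicate 2. The ratio of the highest to the lowest WT library had a median of 1.66, against 1.47 over all genes tested; among genes averaging 50 or more counts it was 1.53 over 32 interferon-stimulated genes and 1.36 over 12509 genes. The median coefficient of variation was 9.74% among KO libraries and 20.2% among WT libraries for the 38, and 5.65% and 15.6% for all genes. Both measures include counting error, and genes were not matched for depth. Chi-square per degree of freedom grows with depth. For WT pairs it was 2.07 to 19.9 over the 32 genes and 11.03 to 154 over the 12509. Libraries were scaled by TMM-adjusted totals for the 32 genes and by summed counts of the 12509 genes for the latter. These ranges therefore cannot be set against each other. WT replicate 1 was the lowest WT library for 23 of the 38 (60.5%), against 20.6% of all genes tested, and replicates 2 to 5 were the lowest for 3, 6, 5 and 1, against 23.5%, 22.7%, 22.2% and 11.1% of all genes. WT replicate 2 was the highest for 16 of the 38 (42.1%), against 23.7% of all genes, and replicates 1, 3, 4 and 5 were the highest for 2, 4, 10 and 6, against 18.8%, 24.6%, 23.4% and 9.57%. By role, replicate 1 was the lowest WT library for 6 of 6 GTPases, 4 of 5 signalling genes, 4 of 5 sensors, 4 of 5 synthetase genes and 4 of 6 of the remaining genes, but for 1 of 8 antiviral effectors and 0 of 3 peptide supply genes. Of 46 tested interferon-induced genes outside the 38, 22 were lowest in WT replicate 1. These counts describe single libraries and carry no test, since genes are not independent replicates.

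**Figure D4:**
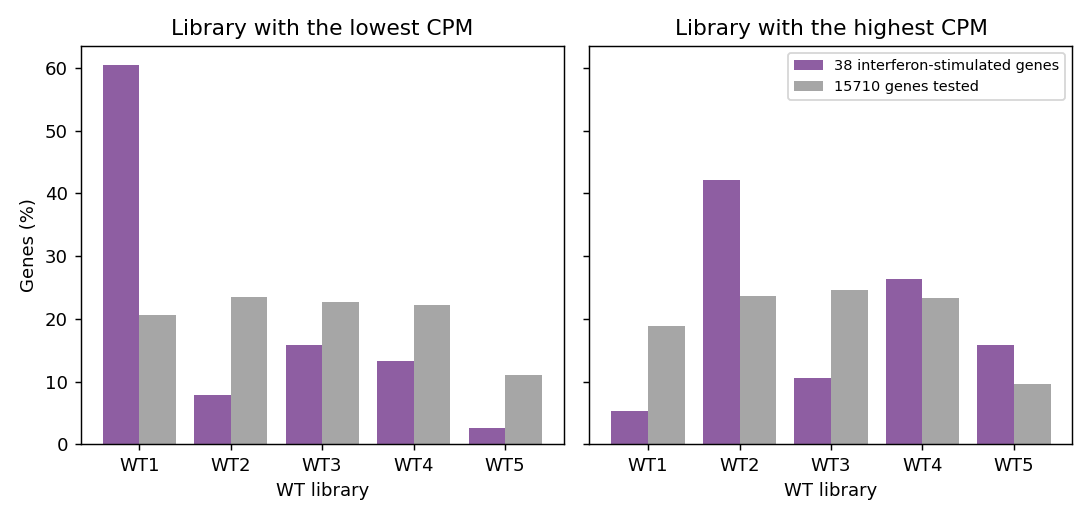
Share of genes (%) for which each WT library has the lowest CPM (left panel) or the highest CPM (right panel) of the 5 WT libraries, for the 38 interferon-stimulated genes (purple) and all 15710 genes tested (grey). WT replicate 1 is lowest for 60.5% of the 38 and WT replicate 2 is highest for 42.1%.

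Relative to the mean of the 5 WT libraries, the median log2 deviation of the 38 was -0.27, 0.20, -0.08, 0.13 and 0.04 in WT replicates 1 to 5, where the medians over all genes ran from 0.00064 to 0.015. The KO mean therefore compared differently with each of them. Its median log2 difference over the 38 was 0.41, -0.08, 0.23, -0.05 and 0.0019 against WT replicates 1 to 5, and it was above these libraries for 32, 12, 28, 18 and 20 of the 38. Without WT replicates 1 and 3, chosen after seeing the data for their higher mitochondrial share, the median log2 difference over the 38 was -0.06, with 16 of 38 above 0, and the median WT ratio was 1.23. Without WT replicate 1 alone the median log2 difference was 0.028, and without WT replicate 3 alone it was 0.042. The median deviation of the 38 was negative only in WT replicates 1 and 3, so leaving out both favoured a lower difference and is no test. A ratio of highest to lowest can also only stay or fall over fewer libraries with the same scaling.

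Of 8 marker lists, the sums of the macrophage, B and plasma cell, and fibroblast lists had their minimum in WT replicate 1 and their maximum in WT replicate 2. Those of the other 5 lists did not. The 6 smooth muscle markers summed to 38772, 30694, 38776, 25319 and 28095 CPM in WT replicates 1 to 5, higher in replicates 1 and 3 than in the other WT libraries. The summed CPM of 9 macrophage markers, of which Lyz2 and C1qa were the most abundant, was 301 to 307 in KO and 200, 359, 239, 269 and 278 in WT replicates 1 to 5, lowest in replicate 1 and highest in replicate 2. That of 6 endothelial markers, led by Pecam1 and Eng, was 322 to 330 in KO and 289, 556, 216, 672 and 565 in WT, and that of 6 brown adipocyte markers, led by Ucp1 and Cidea, was 173 to 187 in KO and 147, 137, 36.4, 716 and 510 in WT. The 7 dendritic cell markers, led by Zbtb46 and Cd209a, summed to 24.2 to 27.2 CPM in KO and 22.2 to 28.0 CPM in WT. No marker of these lists was at 0 in every library. In whole tissue fewer cells of a type and less RNA per cell cannot be told apart, and the part of these markers or of the mitochondrial share in the spread was not tested.

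Immune markers also differed between the labels, beside the peptide supply calls. Of 6 tested B and plasma cell markers 5 were higher in KO in the 5 against 5 fit, where 6.84% of all genes were, and the list of 8 summed to 275 to 279 CPM in KO, against 8.60 to 25.4 CPM in WT; its leading genes were Ighm, which also passed with KO as 1 sample (adjusted p = 0.0413), and Igkc. Cd4 and Cd8a were higher among 6 tested T and NK cell markers. The 9 markers of that list, of which Cd4 and Cd3g were the most abundant, summed to 5.76 to 6.86 CPM in KO and 2.51 to 5.85 CPM in WT. Adgre1 and Csf1r were higher among the 9 macrophage markers, whose median log2 difference was -0.0042, with -0.18 for Mrc1, -0.31 for Fcgr1 and -0.24 for Lyve1, none of which passed. Of 6 fibroblast markers 4 were higher, among them the abundant Dcn, with Col1a1 not past the threshold, and the list summed to 2473 to 2510 CPM in KO and 1876 to 2198 CPM in WT. With KO as 1 sample Ighm was the only marker of these 4 lists to pass. Their part in the levels of Psmb9, Tap1 and Dhx58 was not tested.

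Of the ligands of the pathway only a few interferon genes were looked up, and those found were nearly absent from the counts. Of 11 interferon and receptor genes in the files, Ifnb1, Ifna1, Ifne and Ifnl2 had at most 1 count in any library and Ifng at most 3. The symbols Ifna2, Ifna4, Ifnk and Ifnl3 were not among the gene names counted, so nothing can be said of them. The 6 tested receptor genes gave no call in either direction: Ifnar1 had 38.6 to 42.5 CPM in KO and 37.3 to 46.4 CPM in WT (adjusted p = 0.664), and Ifngr1 had 77.3 to 82.1 CPM in KO and 65.3 to 101 CPM in WT (adjusted p = 0.529). Among 15 genes of signal transduction and feedback, Ptpn6, a phosphatase that restrains cytokine receptors and is abundant in blood cells, was higher, at 3.83 to 4.17 CPM in KO and 2.04 to 2.59 CPM in WT (log2 difference 0.81, SE 0.11, adjusted p = 0.00124). Irf2 and Irf3, a repressor and an activator of interferon genes, were lower, at 21.0 ± 0.621 and 72.4 ± 1.34 CPM in KO, against 25.5 ± 2.37 and 86.5 ± 10.5 CPM in WT (SD, n = 5 each), with adjusted p of 0.0192 and 0.0374. None of 13 tested sensors and adaptors passed. Tlr9, the gene of that list with too few counts to be tested, had 9 to 20 counts a library in KO and 1 to 3 in WT. Of all genes tested, 6.84% were called higher and 7.43% lower.

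Over the 5 lists of further pathway genes, 95 genes were tested, 10 were higher in KO and 3 lower (13.7% called, against 14.3% of all genes), and 0 passed with KO as 1 sample. MHC class I presentation held 5 of the 10, all higher among 15 tested, where 6.84% of all genes were called higher. H2-T23, a class Ib molecule, had 54.3 to 57.9 CPM in KO and 30.8 to 43.8 CPM in WT (log2 difference 0.48, adjusted p = 0.00364). Erap1, the aminopeptidase that trims peptides in the endoplasmic reticulum, had 32.0 to 36.4 CPM in KO and 21.8 to 29.2 CPM in WT (0.37, adjusted p = 0.0101). Psmb10, another immunoproteasome subunit, overlapped, with 17.0 to 21.4 CPM in KO and 13.6 to 17.5 CPM in WT (0.35, adjusted p = 0.0189). Among 46 tested further interferon-induced genes 4 were higher and 1 was lower; Uba7, the enzyme that activates ISG15 for conjugation, had 12.3 to 13.9 CPM in KO and 6.88 to 11.1 CPM in WT (adjusted p = 0.0312), Ifi27l2b had 3.19 to 4.10 CPM in KO and 2.04 to 2.97 CPM in WT (adjusted p = 0.0375), and Ifit3b had 3.72 to 4.71 CPM in KO and 0.769 to 3.08 CPM in WT (adjusted p = 0.0426). The calls of Psmb10, Irf2, Irf3, Uba7, Ifi27l2b and Ifit3b each failed without at least 1 single library, and all of these adjusted p were 0.999 with KO as 1 sample.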

How the data were processed

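Per the labels' protocols, the aortas were frozen on dry ice before Trizol extraction, and the Illumina TruSeq RNA kit turned 1 ug of total RNA into each library. What the authors deposited is a table of read counts, whole numbers per gene, for each library. Bowtie 0.12.2 and, without a stated role, mm8 and mm9 appear in the submitters' processing notes; which counter, annotation and strand setting were used is not given in the sources used here. Coordinates, exon lengths and overlaps come from GENCODE M21 (GRCm38), which held 35519 of the 35667 gene identifiers.

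The test was edgeR's robust quasi-likelihood F test (edgeR 4.0.16, R 4.3.3) on TMM-normalized counts kept by filterByExpr (at least 10 counts, total of at least 15), for 5 KO and 5 WT libraries and no covariate. Benjamini-Hochberg adjustment ran over all 15710 genes, at a threshold of 0.05. The SE was obtained from the log2 difference and F. CPM are TMM-scaled; intervals are at 95% and cover the spread between these libraries. In a second fit of the same kind the KO libraries were added into 1 sample, and the spread comes from the WT libraries alone. Scripts were tested on simulated data. Values in every library are given for genes past the threshold, for the 6 with the highest WT ratio among those with a mean of at least 50 counts, and for the most abundant gene of each role. Of each pathway list up to 3 genes past the threshold are named by smallest p, and of each marker list the 2 most abundant; Psmb8 in every library, the receptors and the other markers past the threshold were named after their values were seen. The 38 genes and all lists were chosen with earlier results of these data known. Alternatives were RLE size factors, library totals, other low-count filters, a block on the replicate number, the fits without single libraries, DESeq2 1.42.0 and limma-voom (limma 3.58.1) with sample weights. The main fit used every library.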

Additional observations from a re-analysis of the deposited data

Results flagged for a closer look

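Single libraries stood apart from the other 4 of their group in 7 of 76 groups examined, with a gap above Dixon's 95% critical value, where chance flags about 1 in 20 groups. In the libraries labelled KO, Isg15 was highest in replicate 4 at 6.17 CPM (4.98 to 5.22 CPM in the other 4). Ifit1 was lowest in KO replicate 2 at 2.33 CPM (3.18 to 3.51 CPM in the other 4), and so was Psmb9 at 5.14 CPM (5.98 to 6.02 CPM). Oas3 was lowest in KO replicate 5 at 0.369 CPM (0.561 to 0.637 CPM), on 10 counts, and Iigp1 was lowest in KO replicate 3 at 7.44 CPM (8.64 to 9.09 CPM). In the WT libraries, Gbp3 was lowest in replicate 1 at 4.89 CPM (8.31 to 8.72 CPM in the other 4), and Gbp7 was highest in replicate 2 at 9.70 CPM (6.33 to 7.28 CPM).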

How the results depend on the processing

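Psmb9 and Ifi27 kept their calls in every alternative run other than the fits with KO as 1 sample, in which no interferon-stimulated gene passed. Of the 38 genes, 3 were called higher and 2 lower. The higher count was 0 with KO as 1 sample (also without any single WT library) and 7 with limma-voom and sample weights. The lower count was 1 with library totals, with no low-count filter and with the replicate block, and 0 with KO as 1 sample. Leaving out each library gave 1 to 6 higher and 1 to 2 lower. With the replicate block Dhx58 (adjusted p = 0.0997) and Ifi35 (0.0623) lost their calls; same-numbered libraries did not deviate together (correlations 0.0031, 0.022, 0.028, 0.042 and -0.040), so the numbers were not taken as pairs. Dhx58 also lost its call with limma-voom (0.0608) and without WT replicates 1 and 3 (0.0523). Other genes gained a call. With limma-voom Ifit3 (0.00040), Bst2 (0.0016), Xaf1 (0.0158), Ifih1 (0.0393) and Ifit2 (0.0467) were higher and Stat2 (0.0274) was lower. Ifih1 also passed with no filter (0.0246), with DESeq2 (0.0320) and without WT replicate 4 (0.0235). Ifit3 (0.0470), Bst2 (0.0212) and Xaf1 (0.0408) also passed without WT replicate 2. Ifit3 passed without WT replicates 1 and 3 as well (0.0282).

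Over all genes, 1075 were called higher and 1167 lower. The counts were 694 and 625 with the block, 7 and 0 with KO as 1 sample (1, 2 or 5 higher without each WT library), 2204 and 2182 without WT replicates 1 and 3, 2995 and 3482 with limma-voom, and 656 to 1375 and 625 to 1361 without each library. Lower calls numbered 492 with library totals and 676 with no filter, where 76.1% and 65.7% of calls were higher, against 47.9% in the main fit. The 10 higher and 3 lower further pathway genes became 4 and 0 with the block, 0 and 0 with KO as 1 sample, 16 and 19 without WT replicates 1 and 3, 23 and 23 with limma-voom, and 3 to 14 and 0 to 3 without each library; lower calls were 0 with library totals and with no filter. The median WT ratio of 1.66 was 1.23 without WT replicates 1 and 3 and 1.42 to 1.65 without each WT library. The causes of these changes were not tested.

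No called gene changed sign. Among genes not called, the following log2 differences, KO minus WT, changed sign. With library totals they were 0.064 (Irf9), 0.017 (Rsad2), 0.054 (Oas1a) and 0.058 (Irgm1); with no filter 0.040 (Irf9), 0.035 (Oas1a) and 0.038 (Irgm1); with the replicate block 0.042 (Zbp1) and 0.0075 (Irgm1); with DESeq2 0.0048 (Irf9) and 0.0038 (Irgm1). With limma-voom they were 0.045 (Zbp1), -0.0089 (Ifit1), 0.18 (Mx1), 3.8e-05 (Rsad2), -0.0074 (Eif2ak2), -0.16 (Oas3), -0.0067 (Oasl2), -0.071 (Igtp), -0.0065 (Iigp1), 0.042 (Ifi44) and -0.014 (Rtp4). Without WT replicates 1 and 3 they were 0.14 (Mx1), -0.068 (Eif2ak2), -0.060 (Oas3), -0.13 (Oasl2), -0.0032 (Gbp2), -0.15 (Igtp), -0.062 (Iigp1), -0.17 (Rtp4) and -0.023 (Parp14). With KO as 1 sample they were 0.058 (Mx1), -0.033 (Oasl2), -0.080 (Igtp) and -0.087 (Rtp4) without WT replicate 1; 0.023 (Irf7), 0.12 (Zbp1), 0.094 (Rsad2), 0.11 (Oas1a), 0.057 (Irgm1) and 0.046 (Ifi44) without replicate 2; -0.0052 (Eif2ak2) and -0.056 (Oas3) without replicate 3; 0.024 (Irf9), 0.16 (Zbp1), 0.032 (Trim25), -0.091 (Oas3) and 0.0024 (Irgm1) without replicate 4; and 0.10 (Oas1a) and 0.057 (Irgm1) without replicate 5. Leaving out each library gave -0.044 to 0.030 for Irf9, -0.22 to 0.029 for Irf7, -0.30 to 0.16 for Zbp1, -0.16 to 0.037 for Trim25, -0.29 to 0.076 for Mx1, -0.17 to 0.095 for Rsad2, -0.0042 to 0.12 for Eif2ak2, -0.14 to 0.11 for Oas1a, -0.084 to 0.12 for Oas3, -0.022 to 0.26 for Oasl2, -0.068 to 0.14 for Igtp, -0.084 to 0.060 for Irgm1, -0.037 to 0.10 for Psmb8, -0.27 to 0.045 for Ifi44 and -0.077 to 0.21 for Rtp4.

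Depth is thinnest for the genes of fewest counts: Mx1, Oas3, Oasl1 and Ifi44 had under 30 counts in each library, and 3 counts amounted to 0.110 to 0.1195 CPM in KO and 0.123 to 0.150 CPM in WT.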
